A study of Mus musculus with 6 samples.

Results

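The blood-brain barrier transporters examined here were 9 genes, Abcb1a, Abcg2, Abcc4, Slco1a4, Slco1c1, Slc2a1, Mfsd2a, Slc7a5 and Slc16a1. They were taken by symbol from a table of 33000 genes and chosen for their known role at the barrier, not by a filter on measured values. Earlier results of these data were known when they were chosen. Each symbol matched 1 row. Frontal cortex RNA had been sequenced with the TruSeq mRNA protocol from 3 mice homozygous for the GFAP-IL6 transgene and from 3 wild-type (WT) mice. All mice were 3 months old, and the strain of each group is given as C57BL/6. GFAP-IL6 mice express the cytokine IL6 from a transgene under the promoter of Gfap, which drives expression in astrocytes. Each library came from the bulk tissue of a separate mouse, and no vessels or endothelial cells had been isolated.

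The endothelial cells of brain capillaries are sealed by tight junctions, and nutrients and drugs reach the tissue largely through transport proteins in their membranes. ATP-driven exporters of the ABC family return drugs and toxins to the blood, whereas solute carriers bring in glucose, amino acids, lactate, lipids and hormones. Astrocyte end-feet surround these capillaries. Several of the transporters are also made by other brain cells, such as astrocytes, neurons and the epithelium of the choroid plexus. In bulk tissue, fewer or more cells of a type and less or more RNA per cell cannot be told apart.

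The libraries held between 11591066 and 16877001 counts in WT and between 7559524 and 11072008 counts in GFAP-IL6. Il6 had at most 2 counts in WT and at least 10 in GFAP-IL6, and Gfap was at 76.5 to 123 CPM in WT and 517 to 870 CPM in GFAP-IL6 (CPM are counts per 1 M counts of a library, M standing for mega, after TMM scaling). Slc17a7, a transporter of cortical excitatory neurons, was at 1100 to 1350 CPM in WT and 1150 to 1290 CPM in GFAP-IL6. WT replicate 3 stood apart in markers of the choroid plexus. Ttr, the transthyretin gene that defines this epithelium, was at 1.31, 11.2 and 550 CPM in WT and at 9.32, 47.3 and 1.67 CPM in GFAP-IL6. The summed level of the 7 choroid plexus markers ranged from 4.36 to 619 CPM in WT and from 4.58 to 60.2 CPM in GFAP-IL6. The transporter results are therefore also given without WT replicate 3 where it moved them.

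Of the 9 transporters, 4 were higher in GFAP-IL6 cortex, namely the exporters Abcb1a and Abcc4, the organic anion carrier Slco1a4 and the glucose carrier Slc2a1. Their increases were between 1.32-fold and 1.62-fold. The other 5 were not called, with adjusted p between 0.459 and 0.823 by the quasi-likelihood test of edgeR, and 0 transporters were called lower. The same 4 and no other had an unadjusted p under 0.05, and DESeq2 called 4 higher and 0 lower. All 9 passed the filter on low counts, with 139 to 1256 counts per library. For comparison, 2.65% of the 15341 genes tested were called higher and 0.209% were called lower at an adjusted p under 0.05. The groups did not overlap, with every GFAP-IL6 library above every WT library, for the same 4 transporters and for 13.8% of all genes tested. None of the 9 reached the threshold of the study for a differentially expressed gene, which asks for a log2 fold change beyond 1 in either direction besides the adjusted p and which 1.38% of genes met. The median log2 fold change of the 9 was 0.18, beside -0.0038 over all genes tested.

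**Figure D1:**
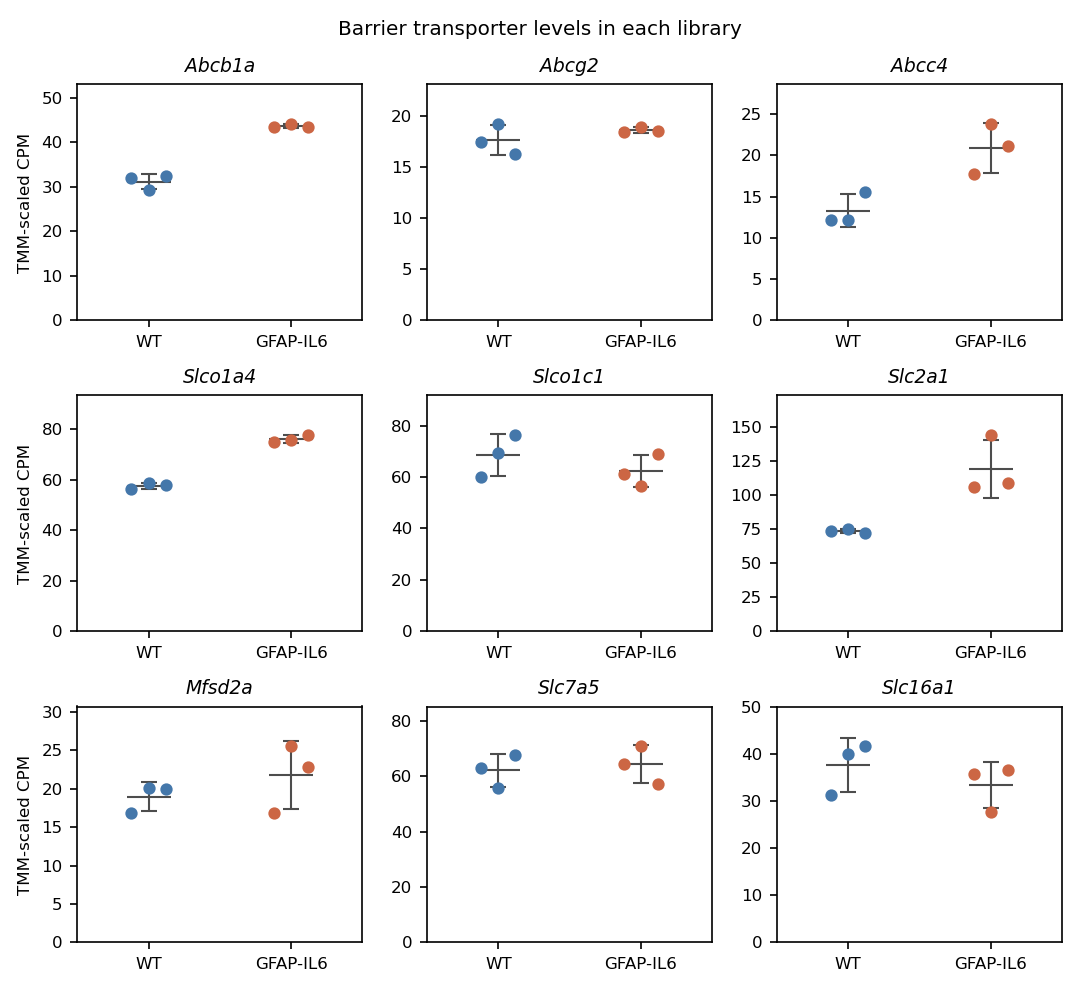
Level of each transporter in TMM-scaled CPM (y axis, from 0) in the 3 WT and 3 GFAP-IL6 libraries. Points are libraries, the long line is the group mean and the error bars are the SD. The points of the groups are separate for Abcb1a, Abcc4, Slco1a4 and Slc2a1 and overlap for the other 5 genes.

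Among the ABC exporters, Abcb1a encodes P-glycoprotein, the main drug efflux pump of the rodent blood-brain barrier (ENSMUSG00000040584.8, chr5:8660077-8748575, plus strand, GRCm38). It was at 31.9, 29.2 and 32.3 CPM in WT replicates 1, 2 and 3 and at 43.3, 44.1 and 43.3 CPM in GFAP-IL6 replicates 1, 2 and 3. The GFAP-IL6 libraries were nearly alike, and all were above the highest WT library. The mean rose from 31.1 ± 1.71 to 43.6 ± 0.463 CPM (SD, n = 3 each), a log2 fold change of 0.49 ± 0.08 (SE) or 1.40-fold (95% interval 1.23 to 1.59), and edgeR gave an adjusted p of 0.00666. The call held without any single library, with log2 fold changes of 0.44 to 0.51. Of 5459 windows of 50 bases in the transcripts of Abcb1a, 22.5% also occurred in transcripts of another gene, most of them in Abcb1b, the closest paralog, and 10.09% of its exon bases lie within other annotated genes. Only unique alignments were counted, and reads from shared sequence are uncertain for both genes. Abcb1b itself was at 3.05, 4.06 and 3.08 CPM in WT and at 5.47, 5.94 and 5.92 CPM in GFAP-IL6. It did not pass the test, with a log2 fold change of 0.75 ± 0.20 (SE) and an adjusted p of 0.0637, although its groups did not overlap. It passed without WT replicate 2, at 0.91 and an adjusted p of 0.025, and without the filter on low counts, at an adjusted p of 0.0237. It did not pass in DESeq2 (adjusted p = 0.128) or with libraries thinned to the smallest total (adjusted p = 0.0922). Leaving out any library other than WT replicate 2 gave an adjusted p of 0.0698 to 0.248.

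Abcg2, the breast cancer resistance protein, shares many drug substrates with P-glycoprotein (ENSMUSG00000029802.11, chr6:58584523-58695676, plus strand). Its levels were 17.4, 19.2 and 16.3 CPM in WT and 18.4, 18.9 and 18.5 CPM in GFAP-IL6. The GFAP-IL6 values all fell within the WT range. The means were 17.6 ± 1.48 and 18.6 ± 0.26 CPM (SD, n = 3 each), the log2 fold change was 0.07 with a 95% interval of -0.16 to 0.31, and the adjusted p was 0.726. It was 0.02 without WT replicate 3 and 0.14 without WT replicate 2. The estimate of 0.49 for Abcb1a lies above this interval, but the 95% interval of Abcb1a, 0.30 to 0.67, overlaps it at the edge. A comparison of the 2 genes within each library is given below as a description.

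Abcc4, multidrug resistance protein 4, exports organic anions and cyclic nucleotides (ENSMUSG00000032849.11, chr14:118482692-118706219, minus strand). It was at 12.1, 12.2 and 15.6 CPM in WT and at 17.7, 23.8 and 21.1 CPM in GFAP-IL6. The lowest GFAP-IL6 library was close to WT replicate 3, the highest of its group. The mean rose from 13.3 ± 1.98 to 20.9 ± 3.02 CPM (SD, n = 3 each), a log2 fold change of 0.64 ± 0.14 (SE) or 1.56-fold (95% interval 1.26 to 1.93), with an adjusted p of 0.0301. The call depended on single libraries, as the log2 fold change was 0.54 (adjusted p = 0.139) without GFAP-IL6 replicate 2 and 0.63 (adjusted p = 0.161) without GFAP-IL6 replicate 3, and 0.77 (adjusted p = 0.0174) without WT replicate 3.

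Of the organic anion transporting polypeptides Slco1a4 and Slco1c1, neighbours on chromosome 6, the first was called higher and the second was not. Slco1a4 carries steroid conjugates, bile acids and drugs (ENSMUSG00000030237.12, chr6:141805440-141856199, minus strand). Its levels were 56.2, 58.7 and 58.0 CPM in WT and 75.0, 75.7 and 77.8 CPM in GFAP-IL6. Both groups were tight, and they were separated by a gap wider than either of them. The mean rose from 57.6 ± 1.30 to 76.2 ± 1.46 CPM (SD, n = 3 each), a log2 fold change of 0.40 ± 0.07 (SE) or 1.32-fold (95% interval 1.18 to 1.48), with an adjusted p of 0.0102. Leaving out a GFAP-IL6 library hardly moved the estimate but ended the call, with 0.41 (adjusted p = 0.0502) without replicate 1, 0.41 (adjusted p = 0.0522) without replicate 2 and 0.39 (adjusted p = 0.0686) without replicate 3. Slco1c1 is the carrier of thyroxine at the barrier and is also made by astrocytes and the choroid plexus (ENSMUSG00000030235.15, chr6:141524368-141570177, plus strand). It was at 59.9, 69.4 and 76.4 CPM in WT and at 61.1, 56.7 and 68.9 CPM in GFAP-IL6. The groups overlapped, and the highest value was that of WT replicate 3. The means were 68.6 ± 8.27 and 62.2 ± 6.19 CPM (SD, n = 3 each), with a log2 fold change of -0.14 (95% interval -0.37 to 0.08) and an adjusted p of 0.459. Without WT replicate 3 it was -0.06 (adjusted p = 0.816).

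Of the carriers of the main fuels of the brain, glucose and lactate, the glucose carrier was called higher and the lactate carrier was not. Slc2a1 encodes the glucose transporter GLUT1, through which glucose crosses the capillary wall, and is made by astrocytes as well (ENSMUSG00000028645.8, chr4:119108711-119137983, plus strand). It was at 73.3, 74.9 and 72.1 CPM in WT and at 106, 144 and 109 CPM in GFAP-IL6. WT libraries were almost level, and GFAP-IL6 replicate 2 was well above the other two of its group. The mean rose from 73.4 ± 1.43 to 119 ± 21.1 CPM (SD, n = 3 each), a log2 fold change of 0.70 ± 0.11 (SE) or 1.62-fold (95% interval 1.37 to 1.92), with an adjusted p of 0.00331. With all libraries this was the largest estimate and the smallest adjusted p of the 9 genes, whereas without WT replicate 3 Abcc4 was at 0.77 and Slc2a1 at 0.69. Without GFAP-IL6 replicate 2 the log2 fold change was 0.55 (adjusted p = 0.00913), and the call held without any single library. Slc16a1 encodes the lactate and ketone carrier MCT1, which oligodendrocytes make too (ENSMUSG00000032902.1, chr3:104638668-104658462, plus strand). Its levels were 31.2, 40.0 and 41.7 CPM in WT and 35.7, 27.7 and 36.6 CPM in GFAP-IL6. The groups overlapped, with means of 37.6 ± 5.66 and 33.3 ± 4.88 CPM (SD, n = 3 each). The log2 fold change was -0.17 (95% interval -0.45 to 0.11) with an adjusted p of 0.463, and it was -0.10 without WT replicate 3.

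Mfsd2a carries lysophospholipids with docosahexaenoic acid and restrains vesicle transport across the endothelium (ENSMUSG00000028655.9, chr4:122946850-122961188, minus strand). It was at 16.9, 20.1 and 20.0 CPM in WT and at 16.9, 25.6 and 22.9 CPM in GFAP-IL6. The lowest values of both groups were the same to the digits given, and the other two GFAP-IL6 values were above the WT range. The means were 19.0 ± 1.83 and 21.8 ± 4.44 CPM (SD, n = 3 each), with a log2 fold change of 0.18 (95% interval -0.13 to 0.49) and an adjusted p of 0.501. It was 0.34 without GFAP-IL6 replicate 1, 0.05 without GFAP-IL6 replicate 2 and 0.11 without WT replicate 1, and was called in none of these fits. Slc7a5 encodes LAT1, the carrier of large neutral amino acids and levodopa (ENSMUSG00000040010.10, chr8:121881150-121907694, minus strand). Its levels were 63.0, 55.7 and 67.6 CPM in WT and 64.4, 70.9 and 57.3 CPM in GFAP-IL6. The groups overlapped almost entirely, with means of 62.1 ± 5.97 and 64.2 ± 6.82 CPM (SD, n = 3 each). The log2 fold change of 0.05 (95% interval -0.17 to 0.26, adjusted p = 0.823) was the smallest of the 9 in size, and it was -0.03 without WT replicate 2 and also without GFAP-IL6 replicate 2, and 0.11 without WT replicate 3.

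**Figure D2:**
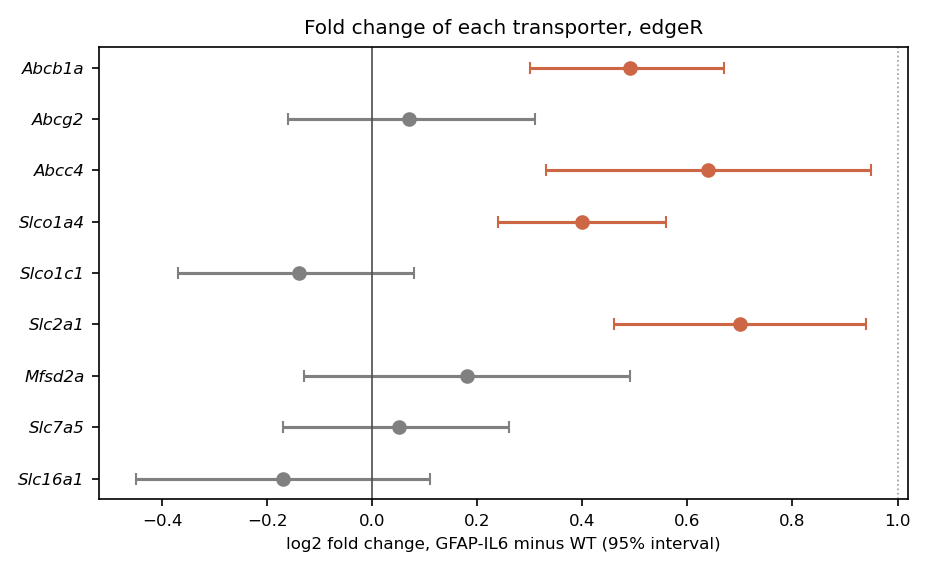
Log2 fold change of each transporter (x axis, GFAP-IL6 minus WT) with its 95% interval from edgeR. Red marks an adjusted p under 0.05 and grey the other genes, and the dotted line is a log2 fold change of 1. The intervals of Abcb1a, Abcc4, Slco1a4 and Slc2a1 lie between 0.24 and 0.95, and those of the other 5 include 0.

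Levels of different genes were compared per length, as TPM (from the counts and the gene lengths of the table, scaled to a total of 1 M per library). In WT cortex Slc2a1 was first at 62.5 ± 1.45 TPM, followed by Slco1c1 at 59.8 ± 6.57, Slc7a5 at 49.1 ± 5.67 and Slco1a4 at 41.8 ± 0.442 TPM (SD, n = 3 each). The first 2 overlapped between libraries, and so did Mfsd2a at 24.5 ± 1.82 and Slc16a1 at 23.6 ± 3.13 TPM, and Abcg2 at 18.7 ± 1.27 and Abcb1a at 17.3 ± 1.38 TPM. Abcc4 was last at 6.44 ± 0.983 TPM. In GFAP-IL6 cortex Slc2a1 led at 107 ± 18.1 TPM, with no overlap with the next gene. Slco1a4, behind Slco1c1 and Slc7a5 in WT, was second at 58.1 ± 0.933 TPM, but its libraries overlapped those of Slco1c1 at 57.1 ± 5.68 TPM, which in turn overlapped those of Slc7a5 at 53.2 ± 5.57 TPM. Abcb1a, behind Slc16a1 and Abcg2 in WT, was ahead of both at 25.4 ± 0.214 TPM, behind Mfsd2a at 29.5 ± 5.75 TPM with overlapping libraries. Slc16a1 at 22.0 ± 3.33 and Abcg2 at 20.7 ± 0.160 TPM overlapped, and Abcc4 was again last at 10.6 ± 1.44 TPM.

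Transporters of like function were then set against each other within each library, for 3 pairs that were chosen after their values had been seen. Slco1a4 minus Slco1c1 on the log2 CPM scale was -0.09, -0.24 and -0.40 in WT and 0.29, 0.42 and 0.18 in GFAP-IL6, so the order of these carriers in CPM was opposite in the groups. The difference of the means was 0.54. Per length the order was not opposite in every library, as GFAP-IL6 replicate 3 had Slco1a4 at 59.1 and Slco1c1 at 62.9 TPM. Abcb1a minus Abcg2 was 0.87, 0.60 and 0.98 in WT and 1.23, 1.22 and 1.22 in GFAP-IL6, a difference of 0.40. Slc2a1 minus Slc16a1 was 1.23, 0.90 and 0.79 in WT and 1.57, 2.37 and 1.57 in GFAP-IL6, a difference of 0.86. The exact two-sided permutation p was 0.1 for each pair, the lowest it can give. Each pair was chosen after its values were seen and sets a called gene against one that was not called. These values are therefore a description and the p is no support for a difference.

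The upstream sequences of 4 transporters are shown for the 3 called genes with a RefSeq start near the annotated gene start (Slc2a1, Abcc4 and Slco1a4) and for Slco1c1, the uncalled neighbour of Slco1a4. Each is the 250 bases before the RefSeq start on GRCm38.p6, written 5′ to 3′ on the strand of the gene. They are chr4:119108495-119108744 (plus strand), chr14:118706220-118706469 (minus strand), chr6:141856221-141856470 (minus strand) and chr6:141524104-141524353 (plus strand). Capitals mark matches, on either strand, to GCGTG, the core bound by the aryl hydrocarbon receptor, and ACGTG, the core bound by hypoxia-inducible factors. CACGTG holds the latter on both strands, and the Slco1a4 and Slco1c1 sequences shown hold neither. Beyond the bases shown, Slco1c1 has matches to ACGTG that begin at bases 20 and 21 after its start.
Slc2a1: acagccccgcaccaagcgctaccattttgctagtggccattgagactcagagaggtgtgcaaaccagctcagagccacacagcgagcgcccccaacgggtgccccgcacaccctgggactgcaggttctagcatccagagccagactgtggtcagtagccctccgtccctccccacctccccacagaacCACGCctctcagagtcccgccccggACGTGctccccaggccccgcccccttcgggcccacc
Abcc4: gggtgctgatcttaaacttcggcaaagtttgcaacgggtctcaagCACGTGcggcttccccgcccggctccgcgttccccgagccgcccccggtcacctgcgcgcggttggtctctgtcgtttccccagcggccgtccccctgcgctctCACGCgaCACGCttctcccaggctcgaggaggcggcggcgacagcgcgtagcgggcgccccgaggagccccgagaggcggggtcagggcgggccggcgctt
Slco1a4: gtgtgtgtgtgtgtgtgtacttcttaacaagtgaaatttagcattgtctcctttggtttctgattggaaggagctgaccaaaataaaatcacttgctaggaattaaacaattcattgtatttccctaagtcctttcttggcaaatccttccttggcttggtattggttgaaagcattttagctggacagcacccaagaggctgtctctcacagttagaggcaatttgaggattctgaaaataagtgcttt
Slco1c1: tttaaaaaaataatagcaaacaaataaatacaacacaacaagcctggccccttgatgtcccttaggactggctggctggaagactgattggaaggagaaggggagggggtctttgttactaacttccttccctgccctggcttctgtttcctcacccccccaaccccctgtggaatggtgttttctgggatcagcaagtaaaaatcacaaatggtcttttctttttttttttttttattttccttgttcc

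The Slc2a1 and Abcc4 sequences were rich in GC (66.4% and 72.0%) and held 13 and 35 CpG sites. Those of Slco1a4 and Slco1c1 had 39.2% and 42.8% GC and 0 CpG sites each, so the called and the uncalled organic anion carrier were alike in this respect. The medians over 32851 promoters were 52.4% GC and 6 CpG sites. Within windows of 300 bases (250 before to 50 after a start), 7 of the 9 transporters had 1 window each whose RefSeq start lay within 50 bases of the annotated gene start. Further windows, among them the only one of Abcb1a at 92986 bases from its annotated start, were not counted. GCGTG occurred in 4 of the 7 windows and in 32.4% of all promoters, and ACGTG in 5 of the 7 and in 19.6% of all promoters. CTTTGAT, a sequence bound by TCF and LEF factors, occurred in 0 of the 7 and in 3.73% of all promoters. TTCNNNGAA, a sequence bound by STAT factors, through which IL6 signals, occurred in 1 of the 7 and in 8.3% of all promoters. That match, in capitals, spans bases 3 to 11 after the Abcc4 start within chr14:118706199-118706227 (minus strand).
Abcc4 STAT match: cggcgcttggTTCCCGGAAgccgctgctt
These matches are descriptions of the sequence. Binding was not measured.

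Since capillary endothelial cells make these transporters, genes that define these cells were examined next. All 10 had positive log2 fold changes with a median of 0.54, and 4 of the 10 were called higher. Cldn5, the main claudin of the tight junction, rose from 21.2 ± 3.11 to 40.7 ± 6.81 CPM (SD, n = 3 each) with a log2 fold change of 0.93 (adjusted p = 0.00177). Flt1, a VEGF receptor, had 0.75 (adjusted p = 0.000925), the adhesion protein Esam 0.69 (adjusted p = 0.00916) and Pecam1 0.60 (adjusted p = 0.0315). Kdr and Emcn were at 0.18 and 0.06 and were not called. Esam lost the call without GFAP-IL6 replicate 1 (0.59, adjusted p = 0.0716), and Pecam1 lost it with libraries thinned to the smallest total (adjusted p = 0.0599) and without GFAP-IL6 replicate 1 (adjusted p = 0.0551), 2 (adjusted p = 0.103) or 3 (adjusted p = 0.214). The summed level of the 10 genes was 138 to 161 CPM in WT and 226 to 260 CPM in GFAP-IL6. Thus 4 of the 10 endothelial markers and their summed level were higher together with the 4 called transporters. The part of these markers in those results was not tested. The following ratio gives the levels on a second scale and does not test that part.

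The level of each transporter was expressed relative to the mean log2 CPM of these 10 genes. This mean went from 3.55 ± 0.09 in WT to 4.06 ± 0.13 in GFAP-IL6 libraries (SD, n = 3 each), a difference of 0.50 (p of 0.1 by an exact two-sided permutation test, the lowest it can give). Because the reference was higher in GFAP-IL6, the median difference over all genes tested was -0.51, and 73.1% of them were lower without overlap and 1.89% higher without overlap. Of the 9 transporters, 4 were lower without overlap, 0 were higher without overlap and 5 overlapped, so being lower on this scale was more common over all genes than among the transporters. The 4 called transporters overlapped between groups. Their differences (GFAP-IL6 minus WT, log2) were -0.02 for Abcb1a, -0.10 for Slco1a4, 0.14 for Abcc4 and 0.18 for Slc2a1, with exact permutation p of 0.5 to 1.0. With the summed CPM of the 10 genes as reference, Abcb1a (-0.17) and Slco1a4 (-0.25) were also lower without overlap, which made 6 of 9, beside 82.4% of all genes lower and 1.23% higher without overlap. The 4 lower ones with the mean log2 reference were among those not called in CPM. Slc16a1 went from 1.68 ± 0.26 to 1.0 ± 0.16 and Slco1c1 from 2.54 ± 0.19 to 1.90 ± 0.03 (SD, n = 3 each). Slc7a5 went from 2.4 ± 0.05 to 1.95 ± 0.28 and Abcg2 from 0.60 ± 0.21 to 0.17 ± 0.14 (SD, n = 3 each). The exact permutation p of these 4 was 0.1 each, the smallest possible, and 0.225 after adjustment over the 9 transporters. Mfsd2a overlapped, with a difference of -0.32. The differences of Abcg2 (-0.42) and Slc7a5 (-0.46) were near the median of all genes.

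**Figure D3:**
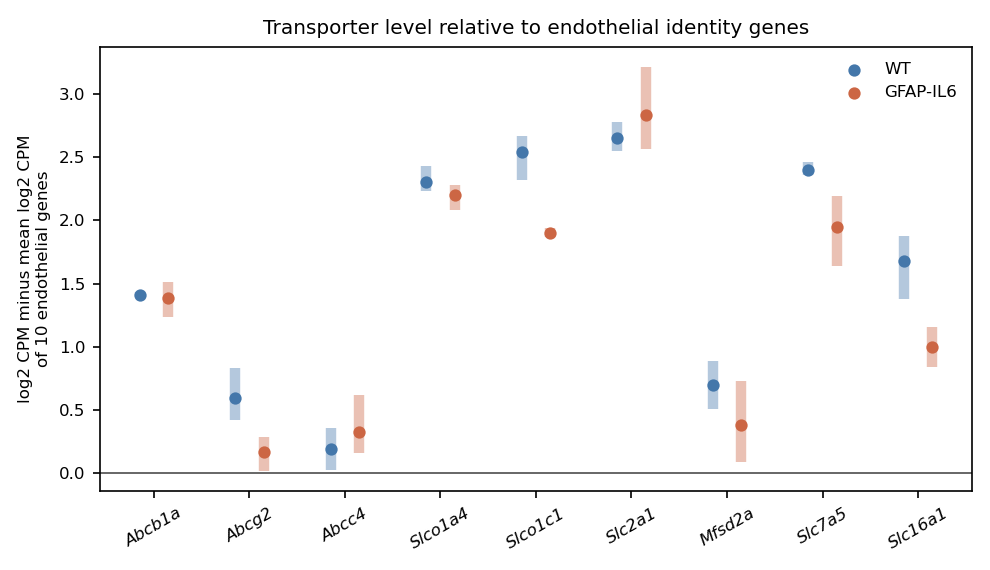
Level of each transporter relative to 10 endothelial genes (y axis, log2 CPM of the transporter minus the mean log2 CPM of the 10 genes) in WT and GFAP-IL6. Points are means of 3 libraries and bars run from the lowest to the highest library. The bars of Abcg2, Slco1c1, Slc7a5 and Slc16a1 are lower in GFAP-IL6 and do not overlap those of WT, as for 73.1% of all genes tested on this scale, and the bars of the other 5 overlap.

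The wider set of barrier transport genes was followed in 8 lists with 67 genes, of which 61 passed the filter, including the 10 endothelial genes above. In all 9 were called higher and 0 lower by edgeR, 4 of them the endothelial genes already given. Over all genes tested, 2.65% were called higher and 0.209% lower. An unadjusted p under 0.05 in either direction was found for 21 of the list genes. The share of all genes at that threshold was not determined, so this number and those of the single lists stand without a background. The median log2 fold change of all genes tested was -0.0038.

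Of 11 other carriers of the barrier, 2 were called higher, with a list median of 0.06. Slc38a5 carries glutamine and related amino acids (ENSMUSG00000031170.12). It was at 2.26, 1.07 and 1.38 CPM in WT and at 11.4, 6.73 and 16.5 CPM in GFAP-IL6. It rose from 1.57 ± 0.618 to 11.5 ± 4.90 CPM (SD, n = 3 each), and the log2 fold change of 2.93 ± 0.33 (SE) had an adjusted p of 0.000283. Slco2b1, an organic anion carrier (ENSMUSG00000030737.14), was at 16.5, 18.3 and 20.8 CPM in WT and at 39.6, 36.4 and 41.1 CPM in GFAP-IL6. These levels gave a log2 fold change of 1.07 ± 0.11 (SE) and an adjusted p of 8.65e-05. Both estimates were above those of the 9 transporters, a difference that was not tested, and both calls held without any single library. Which cells made these 2 transcripts was not tested, and microglia markers, given below, had a median of 0.84. The other 9 carriers, among them the creatine carrier Slc6a8 at 0.06, were not called.

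The 3 other exporters of the list, Abcb1b, Abcc1 and Abcc5, had a median of 0.29 and 0 calls by edgeR, although 2 had an unadjusted p under 0.05. DESeq2 called 1 of them, which was not Abcb1b (adjusted p = 0.128). Partner subunits, without which some of the carriers do not reach the membrane, had 0 calls of 3, 0 at an unadjusted p under 0.05, and a median of 0.08. Bsg, the partner of Slc16a1, was at 318 ± 13.3 and 343 ± 11.4 CPM (SD, n = 3 each) with a log2 fold change of 0.11 (adjusted p = 0.425). Slc3a2, the heavy chain of LAT1, was at 0.08 (adjusted p = 0.571).

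Of 9 family relatives 5 were tested, with 0 calls, 0 at an unadjusted p under 0.05, and a median of 0.29. The smallest adjusted p was that of the lactate carrier Slc16a7, at 0.30 (adjusted p = 0.288). The neuronal glucose carrier Slc2a3 was at -0.02 (adjusted p = 0.927), beside 0.70 for Slc2a1. Slco1a5, which shares sequence with Slco1a4, had at most 7 counts in a library, and 1.61% of the windows of Slco1a4 occurred in other genes.

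Receptors of transcytosis and markers of leaky vessels had 0 calls of 7 tested, 2 at an unadjusted p under 0.05, and a median of 0.07. The insulin receptor Insr was at 0.24 (adjusted p = 0.126). Plvap, a protein of fenestrated and leaky vessels, was at -0.24 (adjusted p = 0.455), and the caveolar Cav1 was at -0.24 (adjusted p = 0.302).

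Of 15 genes of Wnt signalling and the barrier programme, which induces and maintains barrier properties, 3 were called higher and the median was 0.22. The Wnt co-receptor Lrp5 rose from 6.82 ± 1.27 to 12.6 ± 2.23 CPM (SD, n = 3 each), with a log2 fold change of 0.90 (adjusted p = 0.0147). The Wnt target Apcdd1 rose from 19.5 ± 0.564 to 27.7 ± 2.55 CPM (SD, n = 3 each), with 0.51 (adjusted p = 0.0168). Foxf2, a transcription factor of brain pericytes and endothelium, had 0.97 (adjusted p = 0.0374) at 2.02 ± 0.265 and 3.98 ± 0.396 CPM (SD, n = 3 each). Lrp5 lost the call without GFAP-IL6 replicate 3 (0.75, adjusted p = 0.129). Apcdd1 lost it with thinning to the smallest library total (0.42, adjusted p = 0.0508) and without WT replicate 3 (adjusted p = 0.0674), GFAP-IL6 replicate 2 (adjusted p = 0.08) or GFAP-IL6 replicate 3 (adjusted p = 0.126). Foxf2 lost it in DESeq2 (adjusted p = 0.0923), with thinning (0.78, adjusted p = 0.128) and on leaving out each library except WT replicate 1, with adjusted p up to 0.197. Nuclear receptors and sensors that control drug transporters had 0 calls of 7 tested, 3 at an unadjusted p under 0.05, and a median of 0.10, with the smallest adjusted p for Rxra (0.32, adjusted p = 0.11). Nr1i2, the pregnane receptor, had 0 counts in every library. DESeq2 likewise called 0 partner subunits, relatives, transcytosis genes and nuclear receptors.

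**Figure D4:**
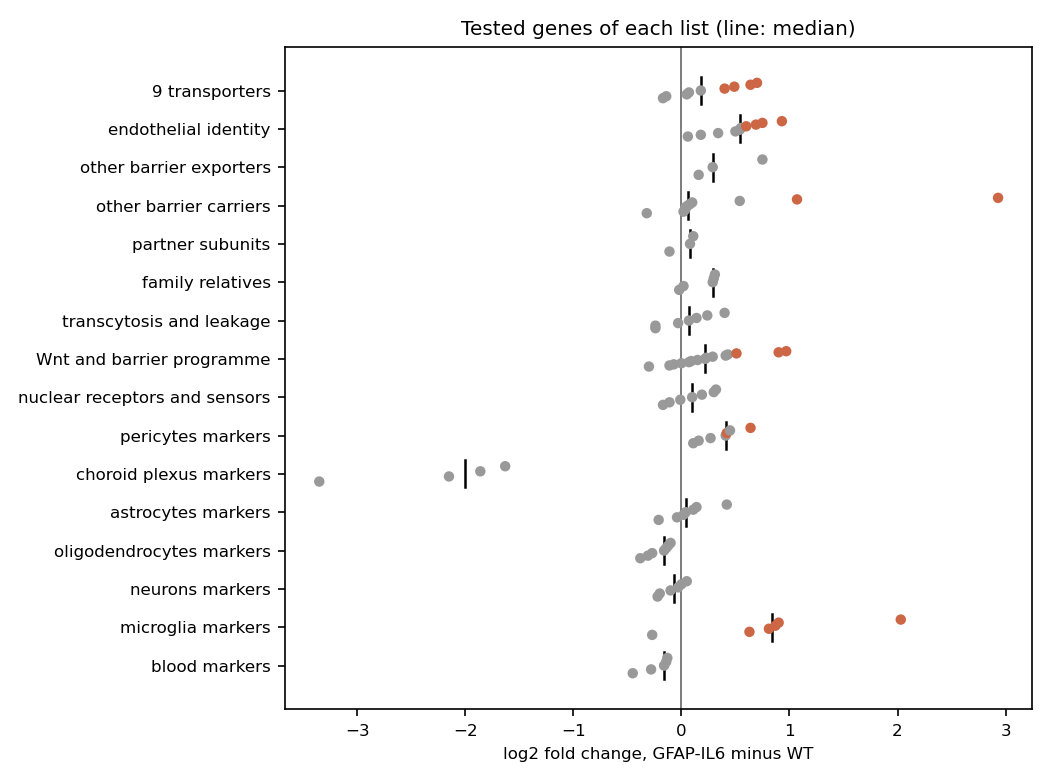
Log2 fold change (x axis, GFAP-IL6 minus WT) of every tested gene in the 9 transporters, the 8 lists and the 7 cell type marker lists. Red points are called at an adjusted p under 0.05, grey points are not, and the vertical line is the median of the list. Slc38a5 at 2.93 and Slco2b1 at 1.07 stand to the right among the barrier carriers, and the 4 choroid plexus markers tested stand to the left.

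Markers of other cell types that make some of the transporters were examined as well. Their levels in bulk tissue cannot tell the number of cells from the RNA per cell. Pericytes, which share the capillary with the endothelium, had 2 of 7 markers called higher and a median of 0.41, with Rgs5 at 0.42 (adjusted p = 0.0289) and Notch3 at 0.64 (adjusted p = 0.035). Their summed level was 214 to 240 CPM in WT and 281 to 319 CPM in GFAP-IL6. Both calls were lost without WT replicate 3 or any single GFAP-IL6 library, with adjusted p up to 0.18 for Rgs5 and 0.22 for Notch3. Microglia had 5 of 6 markers called higher and a median of 0.84, with summed levels of 240 to 283 CPM in WT and 449 to 538 CPM in GFAP-IL6. Itgam was at 2.03, Aif1 at 0.90, Csf1r at 0.87, Tmem119 at 0.81 and Cx3cr1 at 0.63, whereas P2ry12 was at -0.27 (adjusted p = 0.291). Aif1 lost the call with thinning (adjusted p = 0.0641) and without WT replicate 3 (adjusted p = 0.0642) or any single GFAP-IL6 library (adjusted p up to 0.156).

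The 7 astrocyte markers had 0 calls and a median of 0.04, with summed levels of 4350 to 5550 CPM in WT and 4910 to 5720 CPM in GFAP-IL6. The smallest adjusted p was that of Aqp4 (0.42, adjusted p = 0.106), the water channel of the end-feet. Aqp4 was called in DESeq2 (adjusted p = 0.0389), without the filter on low counts (adjusted p = 0.00494) and without WT replicate 2 (0.58, adjusted p = 0.00272). Gfap, also an astrocyte gene but not among these 7 markers, was called higher by edgeR (2.84, adjusted p = 5.49e-06). Oligodendrocyte markers had 0 calls of 7 and a median of -0.16, at 3270 to 6030 and 3300 to 5150 CPM, with Mog at -0.38 (adjusted p = 0.349), which was called without WT replicate 1 (-0.62, adjusted p = 0.028). Neuronal markers had 0 calls of 6 and a median of -0.06, with Gad1 at -0.22 (adjusted p = 0.18). Blood markers had 0 calls of 5 and a median of -0.16, at 30.5 to 39.5 CPM in WT and 26.0 to 35.7 CPM in GFAP-IL6, with Hbb-bs at -0.28 (adjusted p = 0.256). Of 7 choroid plexus markers 4 were tested, with 0 calls, 4 negative values and a median of -2.01. Ttr had -3.35 (adjusted p = 0.209), and 1.49 (adjusted p = 0.376) without WT replicate 3. The 4 transporter calls held without WT replicate 3, with log2 fold changes of 0.51 for Abcb1a, 0.77 for Abcc4, 0.40 for Slco1a4 and 0.69 for Slc2a1. The numbers at an unadjusted p under 0.05 were 2 for astrocytes, 0 for oligodendrocytes, 2 for neurons, 0 for blood and 3 for choroid plexus, and DESeq2 called 1 astrocyte marker and 0 of the other 4 lists. The part of microglia and pericytes in the transporter levels was not tested.

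Genes whose pattern over the 6 libraries was most like that of Slc2a1, the transporter with the smallest adjusted p, were sought among 12081 genes with a mean of at least 5 CPM. Likeness was the root mean square difference of centred log2 CPM, whose median over these genes was 0.396. The nearest was Gm12868 with 0.063, but this gene overlaps Slc2a1 and shares 56 windows of 50 bases with it. These were 1.54% of the windows of Slc2a1, and 2.99% of its exon bases lie within other annotated genes. The use of strand in counting is not stated, so reads from the shared sequence could not be told apart. Gm12868 was followed by the interferon regulatory factor Irf9 (0.079), Prox2os (0.091), Rassf4 (0.095) and Ccdc141 (0.105). Since the profile of Slc2a1 was high in all GFAP-IL6 libraries, genes near it were so too, with log2 fold changes of 0.57 to 0.82. Prox2os was not called (adjusted p = 0.131), and Irf9 lost its call without GFAP-IL6 replicate 2 (0.58, adjusted p = 0.0708).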

How the data were processed

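Gene counts of 6 TruSeq mRNA libraries from mouse frontal cortex (3 WT, 3 GFAP-IL6) were deposited by the authors as whole numbers without normalization, beside a gene length in bases. Their methods name alignment to mm10 with STAR (version 2.4 per the labels) and counting of unique alignments over GENCODE genes by featureCounts. Strand use is not stated. Groups were taken from sample titles. All 33000 genes entered edgeR 4.0.16 (R 4.3.3), with filterByExpr, TMM scaling, the quasi-likelihood F-test of group and no covariate, and Benjamini-Hochberg adjustment over the 15341 genes kept. SEs came from the F statistic. Alternatives were DESeq2 1.42.0, the tool of the authors, its size factors, no filter, thinning, a replicate block and leaving out each library. Positions came from GENCODE M21 (32593 genes matched by identifier) and promoters from RefSeq on GRCm38.p6. Log2 CPM for ratios used a prior count of 2, and ratios were compared by exact permutation tests (SciPy 1.17.1). Fits were tested on simulated counts.

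The transporters, lists and tests were chosen with earlier results of these data known. The text names all 9 transporters, every list gene at an adjusted p under 0.05, in lists with none the gene with the smallest p, and the 5 profiles nearest to the transporter with the smallest adjusted p. Other names, such as Kdr, Emcn, Slc3a2, Slc2a3, Slc6a8, Plvap, Cav1, Abcc1, Abcc5, Slco1a5, Nr1i2 and P2ry12, were added after their values were seen. No library was a duplicate of another, with a chi-square of 2.32 to 21.6 per degree of freedom for the 15 pairs. Total counts of 7559524 to 16877001 set the counting precision, and the molecules behind duplicate reads are unknown. Columns of other samples numbered 0.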

Additional observations from a re-analysis of the deposited data

How the results depend on the processing

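Of the 9 transporters, 4 were called higher with the size factors of DESeq2, the Wald test of DESeq2, no filter on low counts, thinning to the smallest library and the replicate block, and 2 to 4 when a library was left out, with 2 without GFAP-IL6 replicate 2 and 2 without GFAP-IL6 replicate 3. In all of these fits 0 were called lower. In the fit with the replicate block, which paired libraries by number, Abcb1a was at 0.49, Abcc4 at 0.65, Slco1a4 at 0.40 and Slc2a1 at 0.69. Deviations of same-numbered libraries correlated at 0.015 to 0.1 and those of other pairs at -0.077 to 0.052. Within a group the deviations of each gene sum to 0, so these correlations cannot decide whether same-numbered libraries shared a batch. The replicate block called 13 list genes in place of 9, Abcb1b (0.77, adjusted p = 0.0475) among them. Without the filter on low counts 15 were called, with thinning 6, and 5 to 12 when a library was left out. Aqp4 was called with the replicate block (0.44, adjusted p = 0.0466).

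Signs turned for Slc7a5, at -0.03 without WT replicate 2 and -0.03 without GFAP-IL6 replicate 2 (up to 0.12 without others), and for Ttr, at 1.49 without WT replicate 3 (down to -5.03 without others). Relative to endothelial genes, with a library left out, Abcb1a ranged from -0.08 to 0.06 (without GFAP-IL6 replicate 3), Abcc4 from -0.0047 (without GFAP-IL6 replicate 2) to 0.23 and Slc2a1 from -0.0049 (without GFAP-IL6 replicate 2) to 0.32. Abcc4 was at -0.0069 with summed CPM as the denominator. The cause was not tested. Of 99 transporter values from alternatives, 92 kept direction and side of the threshold, 5 lost the call and 2 turned. With 3 libraries a group, exact permutation tests cannot go below 0.1.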

Other observations

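Other genes of the transporter families were scanned after the values had been seen. Of 267 tested solute carriers that are not among the 9 transporters, 9 were called higher, Slc38a5 and Slco2b1 among them, and 1 lower (together 3.75%), with a median log2 fold change of 0.04. Of 35 tested ATP-binding cassette genes that are likewise not among the 9 transporters, 3 were called higher and 0 lower (8.57%), with a median of 0.14. For comparison, 2.65% of all genes tested were called higher and 0.209% lower, so the share of solute carriers was near that of all genes.

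These further called cassette genes were of the lipid-transporting subfamily A and not drug exporters, unlike the called transporters Abcb1a and Abcc4. Abca1, which loads cholesterol onto lipoproteins, rose from 49.1 ± 5.59 to 69.2 ± 6.24 CPM (SD, n = 3 each), a log2 fold change of 0.49 with an adjusted p of 0.0189 by edgeR. Abca7 rose from 36.0 ± 3.62 to 48.1 ± 1.23 CPM (SD, n = 3 each), a log2 fold change of 0.42 with an adjusted p of 0.0287. Abca9 had a log2 fold change of 0.89 (adjusted p = 0.00895). Among solute carriers, the urea carrier Slc14a1 rose from 10.7 ± 1.44 to 21.3 ± 4.48 CPM (SD, n = 3 each), a log2 fold change of 0.98 with an adjusted p of 0.00352. Slc11a1, a metal carrier of phagocytes, had 1.27 (adjusted p = 0.00399), the potassium-chloride carrier Slc12a7 had 1.15 (adjusted p = 0.00862), and Slc7a7, a cationic amino acid carrier, had 1.01 (adjusted p = 0.0281). The mitochondrial pyrimidine nucleotide carrier Slc25a33 fell from 34.1 ± 1.90 to 25.9 ± 2.22 CPM (SD, n = 3 each), with a log2 fold change of -0.40 (adjusted p = 0.0482). The calls of Slc14a1 and Slc11a1 held without any single library. Without GFAP-IL6 replicate 3 the calls were lost for Slc12a7 (0.95, adjusted p = 0.0748), Abca9 (0.68, adjusted p = 0.0587), Abca1 (0.42, adjusted p = 0.154), Abca7 (0.41, adjusted p = 0.165), Slc7a7 (0.96, adjusted p = 0.157) and Slc25a33 (-0.45, adjusted p = 0.112). Abca1 also lost its call without GFAP-IL6 replicate 2 (adjusted p = 0.0615) and Abca7 without GFAP-IL6 replicate 1 (adjusted p = 0.119) or 2 (adjusted p = 0.0865). Slc7a7 lost it without WT replicate 3 (adjusted p = 0.0731) or GFAP-IL6 replicate 2 (adjusted p = 0.128). Slc25a33 lost it without each library except WT replicate 1, with adjusted p up to 0.217, and in DESeq2 (adjusted p = 0.062).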
